A study of Mus musculus with 4 samples.

Results

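The 9 genes described here encode the constant parts of mouse antibodies and the chain that joins antibody units: *Igha* (IgA), *Ighm* (IgM), *Ighd* (IgD), *Ighg1*, *Ighg2b*, *Ighg2c* and *Ighg3* (the IgG subclasses), *Igkc* (the kappa light chain) and *Jchain* (the joining chain). They were taken by name and gene ID from the 31950 gene IDs that 2 single-cell RNA libraries have in common, and all 9 had the same ID in both. One library came from WT mice and the other from *A20ZF7* mice, which carry homozygous point mutations in zinc finger 7 of the ubiquitin-binding protein A20. In each, lamina propria cells from the proximal small intestine of 2 mice aged 12 weeks were tagged by mouse and pooled, and T cells and innate lymphoid cells (ILCs) were enriched by negative selection, so the plasma and B cells seen here are those that the selection left. Expression was counted as unique molecular identifiers (UMIs), each standing for a captured RNA molecule, and given as counts per 1000000 UMIs (CPM) without division by gene length. There is 1 library per genotype, so no difference was tested, no p-value is given, and the 95% intervals in parentheses cover counting error only.

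B cells first make IgM and IgD, and class switch recombination then joins the same variable region to a downstream constant gene, with the loss of the DNA in between. Plasma cells secrete the resulting antibody in large amounts, and most plasma cells of the intestinal lamina propria are known to make IgA. J chain links IgA into dimers, which the polymeric immunoglobulin receptor carries through the epithelium. On GRCm38, the 7 heavy chain genes lie on the minus strand of chromosome 12 in the order *Ighm* (chr12:113418558-113422730), *Ighd* (chr12:113406604-113416324), *Ighg3* (chr12:113356224-113361232), *Ighg1* (chr12:113325240-113330523), *Ighg2b* (chr12:113302965-113307933), *Ighg2c* (chr12:113285325-113288932) and *Igha* (chr12:113254830-113260236). *Igkc* lies on the plus strand at chr6:70726435-70726966 and *Jchain* on the minus strand at chr5:88519809-88527891.

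The IgG genes resemble each other, which bears on how surely a read can be given to a subclass, so the first 60 bases of exon 1 (the CH1 exon) are printed for each, 5′ to 3′, from GENCODE M21 transcripts on GRCm38, with bases that differ from *Ighg1* in capitals. The same stretch of *Igha* follows, all in lower case because it was not aligned to *Ighg1*.
*Ighg1* (chr12:113330464-113330523): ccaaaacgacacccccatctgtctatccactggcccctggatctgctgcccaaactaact
*Ighg2b* (chr12:113307874-113307933): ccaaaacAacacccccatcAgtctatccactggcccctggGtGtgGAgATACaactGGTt
*Ighg2c* (chr12:113288873-113288932): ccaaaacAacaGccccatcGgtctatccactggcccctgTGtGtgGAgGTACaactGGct
*Ighg3* (chr12:113361173-113361232): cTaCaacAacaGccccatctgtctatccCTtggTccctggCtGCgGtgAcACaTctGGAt
*Igha* (chr12:113260177-113260236): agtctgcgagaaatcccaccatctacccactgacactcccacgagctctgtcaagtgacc
Over the 291 bases of this exon, *Ighg1* shared 88.3% of positions with *Ighg2b*, 88.0% with *Ighg2c* and 79.0% with *Ighg3*. Identical runs reached 78 bases between the whole *Ighg2b* and *Ighg2c* transcripts and 88 bases between *Ighg2b* and *Ighg3*, while no run between *Igha* and an IgG transcript was longer than 12 bases. Within exon 1 the longest runs of these 2 IgG pairs were 34 and 17 bases. Counts of single IgG subclasses may therefore be less certain than the split between IgA and IgG, which was not tested.

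The libraries held 35171651 UMIs in WT and 52727058 in *A20ZF7* on the shared IDs. Cells were barcodes with 200 to 2500 genes, at most 15% mitochondrial UMIs and at least 500 UMIs, less the WT barcodes that carried both mouse hashtags, which left 19860 WT and 36876 *A20ZF7* cells, with 1034 barcode sequences in both sets. A cell was placed in a class when it had at least 3 different genes of that class's marker list and more than of any other list. The plasma class held 300 WT cells (1.51% of cells, 1.35 to 1.69) and 324 *A20ZF7* cells (0.879%, 0.786 to 0.979). Summed over the class, 7 of the 8 plasma markers were found in each genotype. Among them, *Mzb1*, a chaperone of antibody assembly, was at 1474 CPM in WT and 2014 CPM in *A20ZF7*. The class was defined by at least 3 of these markers, so their presence does not test what the cells are. Where 4 markers were required, the class held 218 WT and 148 *A20ZF7* cells. *Ms4a1*, *Cd22* and *Pax5*, which define B cells, were at 0 UMIs in both. T and ILC markers summed to 228 CPM in WT and 626 CPM in *A20ZF7* plasma barcodes, and stromal markers to 190 and 317 CPM, and their part in the values below was not tested. Median depth also differed, at 3606 UMIs per plasma barcode in WT and 2010 in *A20ZF7*.

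In plasma barcodes IgA was by far the main isotype in both genotypes. *Igha* made up 99.5% (99.5 to 99.6) of the UMIs of the 7 heavy chain genes in WT and 98.7% (98.6 to 98.7) in *A20ZF7*. Its level was 169580 CPM in WT and 151967 CPM in *A20ZF7*, a ratio of 0.896 (0.889 to 0.903). The middle WT plasma barcode held 638 *Igha* UMIs, with 350 at the 10th and 946 at the 90th percentile. The same values in *A20ZF7* were 323, 140 and 519 UMIs, in barcodes of lower depth. The ratio depends on the total: against UMIs without immunoglobulin genes it was 0.578 (0.574 to 0.582).

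The other genes of the secreted IgA complex had their highest levels here as well. *Igkc* had 105916 CPM in WT and 95727 CPM in *A20ZF7* (ratio 0.904, 0.895 to 0.912), close to the *Igha* ratio. *Jchain* stood at 61559 and 41337 CPM, and its ratio of 0.672 (0.662 to 0.681) lay below those of both. *Ighm* was low, at 72.7 CPM (83 UMIs) and 126 CPM (88 UMIs), and *Ighd* had 0 and 1 UMI. Of the 9 genes, 7 had at least 20 UMIs in plasma barcodes, leaving out *Ighd* and *Ighg3*. Only *Ighg1* was past 2-fold higher in *A20ZF7* and none was past 2-fold lower, while of the 5336 genes with that many UMIs 31% were past 2-fold higher and 2.42% past 2-fold lower. The median ratio was 0.904 over the 7 genes and 1.64 over all 5336. *Ighm*, at a ratio of 1.73 (1.27 to 2.37), and *Ighg1* lay above the median of all genes, and the other 5 lay below it.

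**Figure D1:**
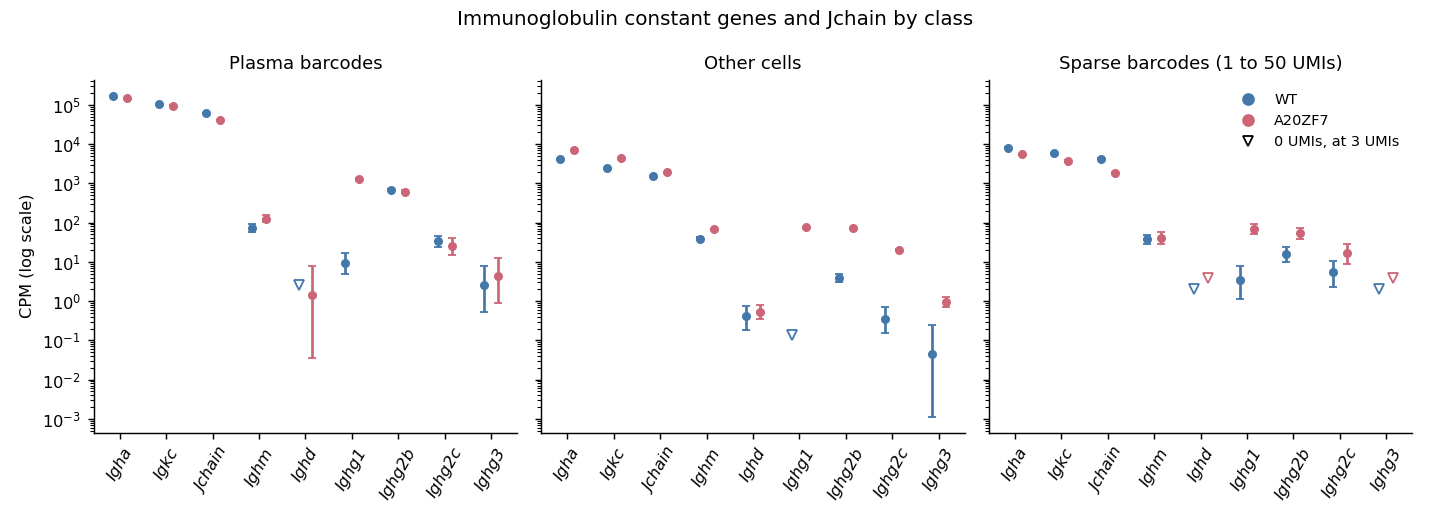
Level of each gene in plasma barcodes, other cells and sparse barcodes, in CPM on a log axis, in WT (blue) and *A20ZF7* (red). Bars are 95% Poisson intervals of the counts, and open triangles mark genes with 0 UMIs at the level of 3 UMIs. *Igha*, *Igkc* and *Jchain* lie far above the rest in every class, and *Ighg1* is the gene in which the genotypes lie farthest apart in other cells (0 CPM in WT, 76.2 CPM in *A20ZF7*).

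The *Ighg1* difference in plasma barcodes came from a pair of cells. *Ighg1* had 9.63 CPM (11 UMIs) in WT and 1298 CPM (906 UMIs) in *A20ZF7*, a ratio of 135 (74.97 to 271). Of the 906 UMIs, 396 lay in 1 barcode and 501 in another. *Ighg2b* likewise rested on single cells, with 771 UMIs in WT, of which 656 came from 1 barcode, and 426 in *A20ZF7*, of which 351 came from 1 barcode. Without the barcodes led by an IgG gene, 299 WT and 321 *A20ZF7* plasma barcodes had *Ighg1* at 9.69 and 13.1 CPM (ratio 1.35, 0.494 to 3.58) and *Ighg2b* at 101 and 109 CPM (ratio 1.07, 0.792 to 1.45). *Ighg2c* was at 33.3 and 25.8 CPM with an interval of the ratio that includes 1 (0.416 to 1.39), and *Ighg3* had 3 UMIs in each library.

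Many cells outside the plasma class carried antibody RNA in amounts that overlapped those of the class. Among other cells, which are all cells outside the plasma and B classes, 63.0% in WT and 46.5% in *A20ZF7* had no heavy chain UMI and a further 32.3% and 40.7% had 1 or 2. At the other end, 180 WT cells (0.920%, 0.791 to 1.06) and 951 *A20ZF7* cells (2.60%, 2.44 to 2.77) had 50 or more, and these held 87.5% and 85.2% of the heavy chain UMIs of all other cells. Including *A20ZF7*'s single such B class cell, the median was 443.5 heavy chain UMIs in the 180 WT cells and 269.5 in the 952 *A20ZF7* cells. Plasma barcodes had higher medians, of 638 and 323 UMIs of *Igha* alone. Of the 180 and 952 cells, 164 and 874 had at least 1 plasma marker, and 134 and 641 had at least 2. Plasma markers also summed to 174 CPM in WT and 186 CPM in *A20ZF7* stromal cells with fewer than 50 heavy chain UMIs. By lineage list, 92 WT and 434 *A20ZF7* cells with 50 or more had no lineage, 31 and 296 were T or ILC, and 50 and 210 were stromal. Whether they were plasma cells with few marker UMIs or several cells in a droplet was not tested.

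**Figure D2:**
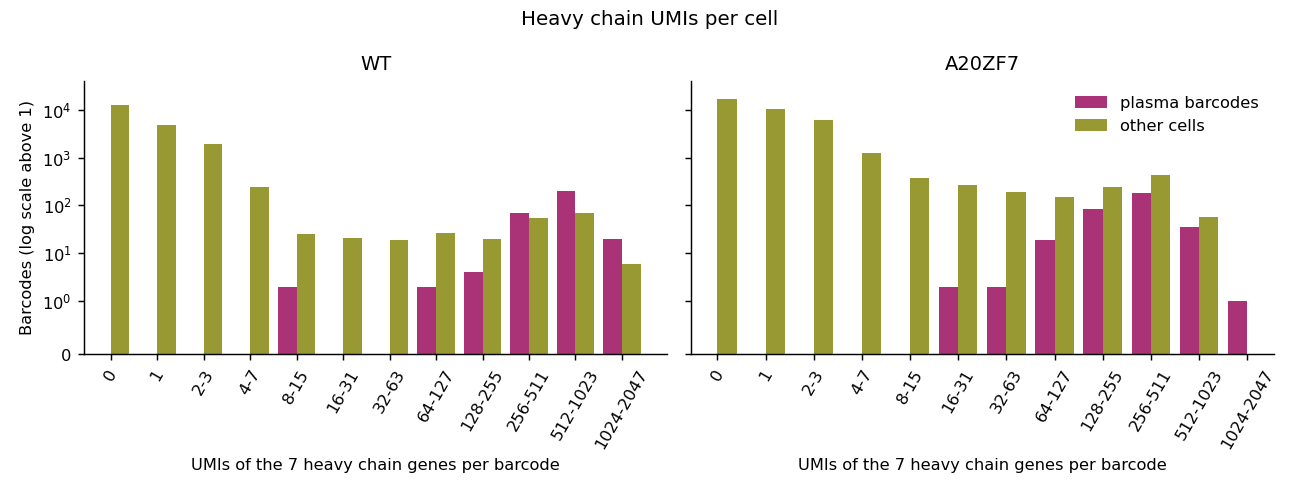
Number of barcodes (vertical axis, log scale above 1) by the UMIs of the 7 heavy chain genes in a barcode (horizontal axis, bins that double in width), for plasma barcodes and other cells in WT (left) and *A20ZF7* (right). Other cells peak at 0 UMIs and form a further peak, which overlaps the plasma barcodes, at 512 to 1023 UMIs in WT and 256 to 511 UMIs in *A20ZF7*.

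Counted by heavy chain RNA in place of markers, antibody-rich cells were the more frequent in *A20ZF7*. Cells with 50 or more heavy chain UMIs, whatever their class, numbered 478 of 19860 in WT (2.41%, 2.20 to 2.63) and 1273 of 36876 in *A20ZF7* (3.45%, 3.27 to 3.64), a ratio of 1.43 (1.29 to 1.60). The marker-based plasma class gave the opposite direction, a ratio of 0.582 (0.496 to 0.683), or 0.366 where 4 markers were required. Only 62.3% of the antibody-rich cells were in the plasma class in WT and 25.2% in *A20ZF7*. The share of plasma cells therefore has no direction that holds for both definitions. Barcodes with both hashtags could be left out in WT only, and 4.47% of those 2572 barcodes were antibody-rich. With those that passed all limits on cells kept, the share ratio of antibody-rich cells was 1.308 (1.185 to 1.445). The threshold of 50 was chosen after the counts had been seen.

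Nearly every antibody-rich cell expressed a single isotype. A leading heavy chain gene, with at least 3 UMIs and 66.7% of the heavy chain UMIs, was found in all of them. *Igha* led 477 of 478 cells in WT (99.8%, 98.8 to 100) and 1250 of 1273 in *A20ZF7* (98.2%, 97.3 to 98.9). In the *Igha*-led cells the median share of *Igha* was 100% in both genotypes, and it was at least 99.5% in WT and 99.2% in *A20ZF7* for all but the lowest 10% of cells.

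An IgG gene led 1 WT cell and 22 *A20ZF7* cells. As a share of antibody-rich cells this was 0.209% (0.00530 to 1.16) in WT and 1.73% (1.09 to 2.61) in *A20ZF7*, a ratio of 8.26 with a wide interval (1.33 to 341). *Ighg1* led 12 *A20ZF7* cells and no WT cell. Those cells held 59, 84, 108, 183, 252, 259, 309, 396, 428, 429, 434 and 501 *Ighg1* UMIs, and between 0 and 6 *Igha* UMIs. *Ighg2b* led 7 *A20ZF7* cells with 152, 239, 341, 351, 392, 412 and 525 *Ighg2b* UMIs, and the single WT cell with 656. *Ighg2c* led 3 *A20ZF7* cells with 54, 259 and 385 UMIs. The IgG and *Igha* counts of a cell hardly overlapped: the leading IgG gene held at least 94.7% of the heavy chain UMIs in each, and none had more than 7 *Igha* UMIs.

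The IgG-led *A20ZF7* cells were spread over classes, with 10 of no lineage, 6 T or ILC, 3 stromal and 3 plasma, and 21 of the 22 had a plasma marker. They carried 67.3% of all IgG UMIs of that library (6560 of 9748), and the WT cell carried 61.6% (656 of 1065). How many mice they came from is not known, since the *A20ZF7* cells could not be assigned to their 2 mice here. *Ighm* led 1 *A20ZF7* cell, with 70 UMIs, which had no plasma marker. *Ighd* and *Ighg3* led none, which in *A20ZF7* allows a share of antibody-rich cells of up to 0.236% (3 counts) for each.

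**Figure D3:**
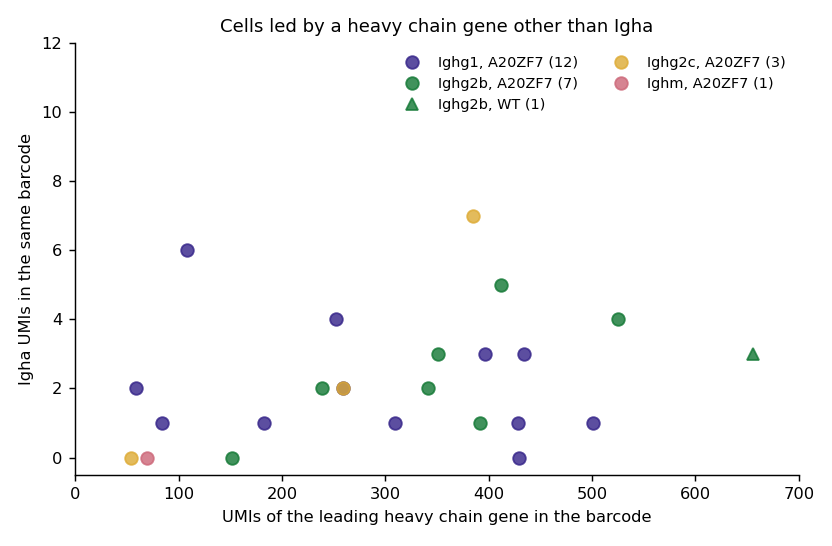
Each point is an antibody-rich cell that a gene other than *Igha* leads, by the UMIs of its leading gene (horizontal axis) and its *Igha* UMIs (vertical axis), with colours for the leading gene, circles for *A20ZF7* and a triangle for WT. The 24 cells lie between 54 and 656 UMIs of the leading gene and at 0 to 7 UMIs of *Igha*, and points of *Ighg1* and *Ighg2c* overlap at 259 and 2 UMIs.

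Light chain use was mostly kappa in both libraries. By the same rule, *Igkc* led 458 of 478 antibody-rich WT cells (95.8%, 93.6 to 97.4) and 1206 of 1273 in *A20ZF7* (94.7%, 93.4 to 95.9), and the lambda constant genes *Iglc1*, *Iglc2* and *Iglc3* together led 3.77% (2.25 to 5.89) and 5.26% (4.10 to 6.64). These intervals overlap. In *Igha*-led cells with kappa RNA (*Igkc* at 10% or more of *Igha*), the median was 62.2 *Igkc* UMIs per 100 *Igha* UMIs in WT and 61.6 in *A20ZF7*. Of the 22 IgG-led *A20ZF7* cells, 19 had at least 10 *Igkc* UMIs and 3 had 2 or fewer.

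*Jchain* relative to *Igha* was lower in *A20ZF7*, and it moved with depth. Over all antibody-rich cells there were 35.2 *Jchain* UMIs per 100 *Igha* UMIs (34.98 to 35.4) in WT and 26.2 (26.0 to 26.3) in *A20ZF7*. Cell by cell, the median of *Igha*-led cells was 33.2 in WT (25th to 75th percentile 24.8 to 42.4) and 24.8 in *A20ZF7* (18.4 to 31.9). Within a library, deeper barcodes had more *Jchain* per *Igha*. From 2000 to under 4000 UMIs the medians were 31.1 in 217 WT cells and 27.6 in 543 *A20ZF7* cells, and from 4000 UMIs on they were 42.3 and 33.4. From 500 to under 1000 UMIs the order was turned, with 13.0 in 23 WT and 17.2 in 135 *A20ZF7* cells, and likewise from 1000 to under 2000 UMIs, with 19.6 and 22.2. The *A20ZF7* antibody-rich cells were the shallower ones, at a median of 2057 UMIs in the *Igha*-led cells against 3452 in WT. IgG-led *A20ZF7* cells held 15.1 *Jchain* UMIs per 100 IgG UMIs, and 1 of the 22 had none.

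**Figure D4:**
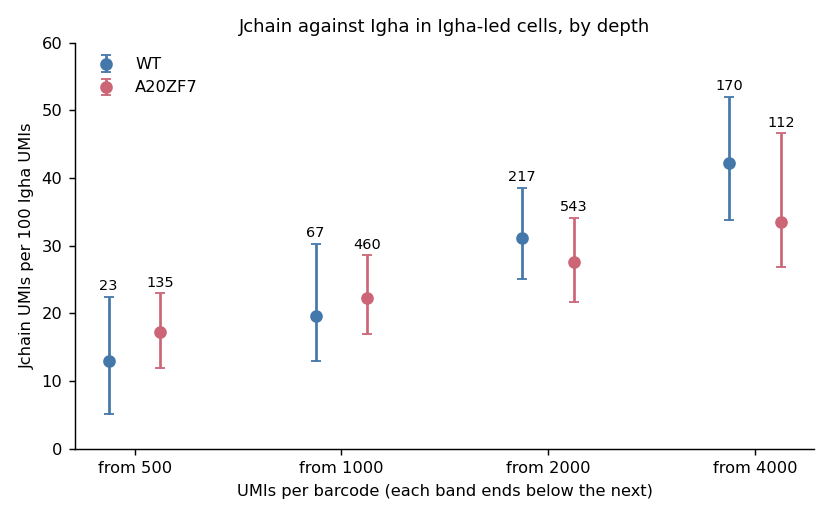
*Jchain* UMIs per 100 *Igha* UMIs in *Igha*-led antibody-rich cells (vertical axis) by the depth of the barcode (horizontal axis), for WT (blue) and *A20ZF7* (red). Points are medians over cells, bars run from the 25th to the 75th percentile, and numbers give the cells. Medians go up with depth in both, WT lies below *A20ZF7* under 2000 UMIs and above it from 2000 UMIs on, and the bars overlap in every band.

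B cells were almost absent, so that IgM and IgD on naive B cells could hardly be measured. The B class held 4 WT cells and 3 *A20ZF7* cells, shares of 0.0201% (0.00549 to 0.0516) and 0.00813% (0.00168 to 0.0238). The WT cells had 12 *Ighm* and 3 *Ighd* UMIs together, with no *Ighm* count above 8 in a cell. The *A20ZF7* cells had 3 *Ighm* and 1 *Ighd* UMIs, and 1 of them held 298 of their 305 *Igha* UMIs. The *Ighm* ratio of 0.125 (0.0226 to 0.463) rests on these 7 barcodes, and it was 0 with a minimum of 1000 UMIs, so no gene was called in this class.

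In other cells every gene of the group was at a higher level in *A20ZF7*, and 4 IgG genes were past 2-fold. *Igha* had 4107 CPM in WT and 6907 CPM in *A20ZF7* (ratio 1.68, 1.67 to 1.70), *Igkc* at 2450 and 4316 CPM (1.76, 1.75 to 1.78) and *Jchain* at 1520 and 1892 CPM (1.24, 1.23 to 1.26). *Ighm* stood at 39.2 and 67.6 CPM (1.73, 1.60 to 1.86) and *Ighd* at 0.406 and 0.540 CPM, with an interval of the ratio that includes 1 (0.592 to 3.26). *Ighg1* had 0 UMIs in WT and 3249 in *A20ZF7*, at least 563-fold higher against a floor of 3 UMIs in WT. *Ighg2b* had 87 and 3091 UMIs (ratio 18.5, 14.9 to 23.1), *Ighg2c* 8 and 869 (56.4, 28.5 to 131) and *Ighg3* 1 and 41 (21.3, 3.62 to 862). All 9 genes reached 20 UMIs. The 4 IgG genes past 2-fold higher compare with 5.78% of 17075 genes, and none was past 2-fold lower, against 12.5% of those genes. The median ratio was 1.76 over the 9 genes and 0.927 over all. The IgG values rested largely on antibody-rich cells, of which *Ighg1* led 10, *Ighg2b* 6 and *Ighg2c* 3 outside the *A20ZF7* plasma class. Other *A20ZF7* cells below 50 heavy chain UMIs held 671 *Ighg1*, 822 *Ighg2b*, 58 *Ighg2c* and 19 *Ighg3* UMIs. There *Ighg1* was at least 119-fold higher, and the other ratios were 25.8 (16.0 to 44.5), 15.5 (4.09 to 131) and 10.1 (1.61 to 421).

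Most *Igha* UMIs of other cells sat in the antibody-rich ones, but a lower level, part of it in few cells, was found in the rest and differed as well. *Ighm* was the reverse, with 837 of 868 UMIs in WT and 2587 of 2883 in *A20ZF7* in other cells with fewer than 50 heavy chain UMIs. In other cells with fewer than 50 heavy chain UMIs, *Igha* had 494 CPM in WT and 1016 CPM in *A20ZF7*, a ratio of 2.06 (2.01 to 2.10). Among them, 50 WT and 622 *A20ZF7* cells had 10 to 49 heavy chain UMIs. Those cells held 1265 of the 11517 heavy chain UMIs of this range in WT and 13706 of 45229 in *A20ZF7*. Their part in the ratio was not tested. An *Igha* UMI was found in 33.9% (33.3 to 34.6) and 48.1% (47.6 to 48.6) of all other cells below 50 heavy chain UMIs, and the median was 0 in both. With each cell thinned to 500 UMIs, which left out no cell, the shares were 21.3% and 31.4%. Stromal cells, which should not make antibody, had such a UMI in 33.9% and 47.7% of cells (18.6% and 29.1% thinned), at median depths of 1069 and 1037 UMIs. T or ILC cells had it in 34.0% and 49.4% (22.3% and 29.8% thinned). In WT the thinned share of T or ILC cells (21.1 to 23.6) lay above that of stromal cells (17.8 to 19.5). The source of these UMIs was not tested.

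IgG RNA at this low level was found mainly in *A20ZF7*. *Ighg1* had 0 UMIs in the 19376 WT cells of this low range, which allows a share of cells with a UMI of up to 0.0155% (3 counts), and 671 UMIs in 35598 *A20ZF7* cells, in 1.51% of them (1.38 to 1.64). In *A20ZF7* it was found in 1.52% of T or ILC cells, 1.62% of stromal cells and 1.39% of cells of no lineage. *Ighg2b* had 17 UMIs in WT (0.789 CPM) and 822 in *A20ZF7* (20.4 CPM).

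*Ighm* did not follow *Igha* across all cell types. In the low range, T or ILC cells had *Ighm* at 62.6 CPM in WT and 81.5 CPM in *A20ZF7*, and stromal cells at 12.5 and 30.4 CPM. T or ILC cells were thus 5.02 times (4.04 to 6.26) above stromal cells in WT and 2.68 times (2.399 to 3.0) in *A20ZF7*, whereas the *Igha* ratio of the same classes was 1.25 (1.19 to 1.31) and 0.878 (0.857 to 0.898). Macrophage or dendritic cells had the highest *Ighm* level, 129 CPM (76.5 to 204) in WT from 18 UMIs and 119 CPM (88.1 to 158) in *A20ZF7* from 48 UMIs, and these intervals lie above those of T or ILC cells (55.6 to 70.35 in WT and 77.2 to 86.0 in *A20ZF7*). Thinned to 500 UMIs, an *Ighm* UMI was found in 3.27% of WT T or ILC cells (2.77 to 3.85) against 0.463% of stromal cells (0.327 to 0.638), and in 3.96% (3.63 to 4.31) against 1.33% (1.13 to 1.56) in *A20ZF7*. The proportion of *Ighm* to *Igha* thus differed between types of the same library. There were 11.3 *Ighm* UMIs per 100 *Igha* UMIs in WT T or ILC cells and 2.81 in stromal cells, with 9.25 and 3.03 in *A20ZF7*. In some types both genes were high or low together. Low-range cells of no lineage had *Ighm* at 79.8 and 81.1 CPM and *Igha* at 675 and 1301 CPM in WT and *A20ZF7*. WT epithelial cells had *Ighm* at 3.31 CPM and *Igha* at 125 CPM.

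The *Ighm* UMIs came as single molecules in many cells. No T or ILC cell below 50 heavy chain UMIs had more than 3 in WT or 6 in *A20ZF7*. The level was at 64.9 CPM (57.0 to 73.5) in WT cells with a *Cd3* or *Trac* UMI and 51.7 CPM (37.0 to 70.5) in those without, and at 82.5 (78.0 to 87.2) and 65.9 CPM (50.9 to 84.0) in *A20ZF7*. B cell markers summed to 29.2 CPM in WT T or ILC cells and 12.3 CPM in stromal cells, and to 35.4 and 27.0 CPM in *A20ZF7*. A B marker or *Cd79a*, a chain of the B cell receptor, was found in 6.45% (3.73 to 10.3) of WT T or ILC cells with an *Ighm* UMI and 2.35% (1.91 to 2.87) of those without, and in 8.91% (7.28 to 10.8) and 2.63% (2.35 to 2.94) in *A20ZF7*. The cells with *Ighm* were the deeper ones in both, at medians of 998 and 814 UMIs in WT and 1300 and 1048 in *A20ZF7*. The part of B cell RNA in the *Ighm* level was not tested.

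**Figure D5:**
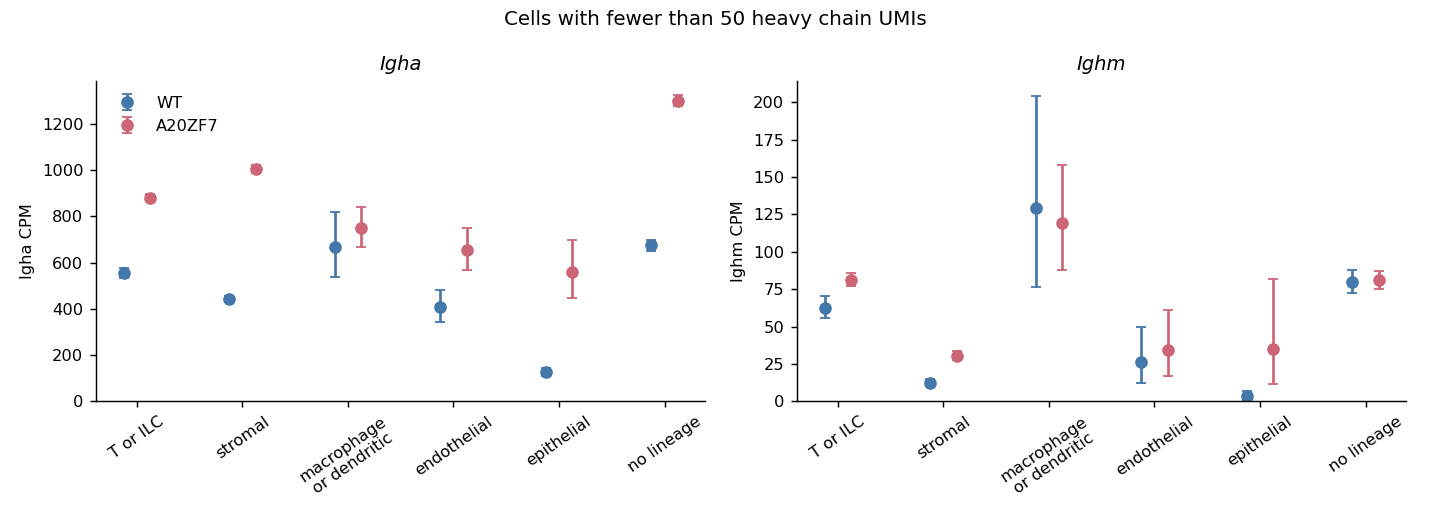
*Igha* (left) and *Ighm* (right) in CPM for cells of each type with fewer than 50 heavy chain UMIs, in WT (blue) and *A20ZF7* (red), with 95% Poisson intervals of the counts. *Igha* lies between 125 and 675 CPM in WT and between 561 and 1301 CPM in *A20ZF7*, while *Ighm* is several times higher in T or ILC cells than in stromal cells of the same library.

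Sparse barcodes hold 1 to 50 UMIs and are droplets taken to lack a cell. They carried *Igha* at 8055 CPM in WT and 5566 CPM in *A20ZF7*, a ratio of 0.691 (0.667 to 0.715), the opposite direction to that of the low range of other cells. *Igkc* stood at 5787 and 3724 CPM (ratio 0.643, 0.617 to 0.671) and *Jchain* at 4218 and 1824 CPM (0.433, 0.408 to 0.458). *Ighm* stood at 37.4 CPM (55 UMIs) and 40.7 CPM (32 UMIs), and *Ighd* and *Ighg3* had 0 UMIs in both. *Ighg1* had 5 and 54 UMIs, *Ighg2b* 23 and 42, and *Ighg2c* 8 and 13. Of the 7 genes with 20 UMIs, the 3 last named were past 2-fold higher in *A20ZF7*, against 6.44% of 9467 genes, and *Jchain* was past 2-fold lower, against 6.33%. The median ratio was 1.09 over the 7 genes and 1.15 over all 9467. *Igha* was thus 18.1 times (17.5 to 18.8) as high in sparse barcodes as in low-range stromal cells in WT and 5.54 times (5.36 to 5.73) in *A20ZF7*, and *Ighm* 2.997 (2.14 to 4.16) and 1.34 times (0.904 to 1.92).

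Hashtags allowed the WT cells to be compared between mice. Plasma barcodes made up 1.61% (1.30 to 1.98) of 5592 cells in 1 mouse and 1.33% (1.01 to 1.70) of 4524 in the other, and antibody-rich cells 2.59% (2.19 to 3.04) and 2.45% (2.02 to 2.95). *Igha* in plasma barcodes was at 165707 and 148959 CPM, and *Jchain* at 62041 and 55543 CPM. The *A20ZF7* value of *Igha* (151967 CPM) lay between those of the 2 WT mice, and that of *Jchain* (41337 CPM) lay below both. The 150 WT plasma barcodes without a hashtag call lay above both mice, at 183703 CPM of *Igha* and 64481 CPM of *Jchain*. The values of the 2 mice therefore do not give the spread of WT. Median depth of plasma barcodes was 3854 and 4435 UMIs in the mice and 2010 in *A20ZF7*, and its part here was not tested. *Ighg2b* differed most, with 691 UMIs (1864 CPM) in the mouse of the IgG-led cell and 17 UMIs (62.5 CPM) in the other. A further 9744 WT cells had no hashtag call.

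Surface antibodies to IgM, IgD and CD138, used for WT only, had similar medians on plasma barcodes, T or ILC cells and stromal cells. The IgM antibody had a median of 13 UMIs on plasma barcodes, 12 on T or ILC cells and 13 on stromal cells of the low range, and the IgD antibody 1 on each. CD138, a plasma cell surface protein, had a median of 8 on all 3, and CD3, a T cell protein, 14 on plasma barcodes and 15 on T or ILC cells. On the 4 WT B class cells the IgM antibody had a median of 13 and the IgD antibody of 2, at a median of 2246 UMIs over all antibodies against 1614 on plasma barcodes. Surface IgA was not examined here.

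The other genes of the pathway were followed by lists. Of the other constant genes, *Ighe* (IgE) had 0 UMIs in plasma barcodes and 2 in all other cells. *Iglc3*, 1 of 3 tested, was past 2-fold lower in *A20ZF7* plasma barcodes (1012 and 351 CPM), against 2.42% of all genes. Lambda genes led only 11 WT and 19 *A20ZF7* plasma barcodes, and the part of single cells in this difference was not tested. *Iglc1* was past 2-fold higher in other cells (60.7 and 192 CPM), against 5.78% of all genes. In sparse barcodes *Iglc1*, *Iglc2* and *Iglc3* were past 2-fold lower, against 6.33%. Of the switching and plasma cell genes, 6 had at least 20 UMIs in plasma barcodes and none was past 2-fold, where 31% of all genes were past 2-fold higher and 2.42% lower. *Xbp1*, which drives the secretory program, stood at 958 and 900 CPM (ratio 0.939, 0.850 to 1.04), *Cd79a* at 493 and 482 CPM, and *Prdm1*, the regulator of plasma cell fate, at 64.8 and 90.3 CPM (1.39, 0.980 to 1.98). In other cells *Irf4* (52.5 and 131 CPM) and *Pou2af1* (3.12 and 9.45 CPM) of the 7 with enough UMIs were past 2-fold higher, against 5.78% of all genes.

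Among the genes of IgA transport and of the BAFF and APRIL system, *Pigr*, the polymeric immunoglobulin receptor of epithelium, was past 2-fold lower in *A20ZF7* in all 3 classes, at 397 CPM in WT and 14.0 CPM in *A20ZF7* other cells. Epithelial cells made up 2.15% of WT and 0.160% of *A20ZF7* cells, and epithelial markers summed to 762 and 62.1 CPM in other cells. The part of these cells in the *Pigr* value was not tested. *Tnfrsf13b*, which encodes the receptor TACI, stood at 138 and 94.6 CPM in plasma barcodes and was past 2-fold higher in other cells (9.34 and 20.4 CPM), as was *Tnfrsf13c*, the BAFF receptor (0.722 and 1.76 CPM). These were the 2 genes past 2-fold higher and *Pigr* the 1 past 2-fold lower of the 5 in other cells, where 5.78% and 12.5% of all genes were. The ligand *Tnfsf13b* (BAFF) was at 26.9 and 27.9 CPM in other cells.

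Of the 10 homing and help genes, 6 had enough UMIs in plasma barcodes, and 3 of these were past 2-fold higher, where 31% of all genes were, and none was past 2-fold lower. *Ccr9*, a receptor for homing to the small intestine, was past 2-fold higher in *A20ZF7* (49.9 and 119 CPM). So were *Il10* (9.63 and 35.8 CPM) and *Cd40lg* (22.8 and 45.9 CPM), both also made by T cells. All 3 were higher still in other cells, with *Ccr9* at 154.5 CPM in WT and 314 CPM in *A20ZF7*. There *Il10* was at 21.9 and 69.7 CPM and *Cd40lg* at 125.9 and 140.7 CPM. These plasma barcodes had the T and ILC marker sums given above, whose part in the 3 values was not tested. *Ccr10*, a further receptor of IgA plasma cells, was at 74.4 and 81.7 CPM. In other cells, where all 10 had enough UMIs, *Ccr10*, *Ccr9*, *Il10* and *Il21* were past 2-fold higher, against 5.78% of all genes, and *Il5* past 2-fold lower (15.6 and 2.25 CPM), against 12.5%. In sparse barcodes *Il10*, *Tnfsf13b* and *Irf4* were past 2-fold higher, against 6.44% of all genes, and *Il5* and *Pigr* past 2-fold lower, against 6.33%. The *Tnfsf13b* ratio of 2.43 there rests on 10 WT and 13 *A20ZF7* UMIs, and its interval includes 1 (0.985 to 6.19).

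Other genes followed *Igha* across the classes. Over the 22 combinations of class and genotype, and among 14639 genes outside the immunoglobulins, the highest correlations with *Igha* on the log2(CPM + 10) scale were those of *Gm30211* (r = 0.909), *Fam214a* (0.892), *Txndc5* (0.881), *Creld2* (0.870) and *Txndc11* (0.837). *Txndc5* and *Txndc11* encode disulfide-handling proteins of the endoplasmic reticulum, and *Txndc5* is among the markers that define the plasma class. For *Ighm* they were *A630001G21Rik* (0.932), *Zfp52* (0.915), *Map4k2* (0.905), *Trpv2* (0.898) and *Naa10* (0.888). The points share libraries, and the B, mast and glial classes among them rest on as few as 3 cells, so the values are a description only.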

How the data were processed

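The authors deposited UMI counts per gene and barcode, and antibody UMI counts; the sources name Cell Ranger 7.1 and mm10, and the file headers name version 8.0.0 for gene expression and 7.1.0 for antibodies. The antibody files of *A20ZF7* are identical to those of WT and were not used, so hashtags served WT only. Counts were used as deposited (Python 3, scipy). The planned hashtag rule (80% from 1 hashtag) marked 71.1% of WT barcodes with 200 genes as double, so HTODemux (Seurat 5.3.0) was used instead. HTODemux marked 8.92% as double and left 47.2% without a call. Why the rules differed was not tested. Levels have exact Poisson intervals, shares exact Clopper-Pearson intervals and ratios exact conditional intervals, at 95%. Genes with 20 UMIs over both libraries were called past 2-fold. The ratio step was tested on simulated data. All 9 members and pathway genes past 2-fold were named. The members, lists and tests were chosen with earlier results of these data known. Intervals of levels and their ratios follow from summed UMIs, and those of shares from the UMIs or cells counted. Spread between cells or mice does not enter them. The plasma values rest on 300 WT and 324 *A20ZF7* plasma barcodes. The gene lists of both libraries differ, with 1746 IDs in WT alone and 335 in *A20ZF7* alone, and these were left out. Alternatives were other limits on cells, markers, hashtags and totals. A gene of the pathway lists is not reported here.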

Additional observations from a re-analysis of the deposited data

How the results depend on the processing

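Of 73 values under alternatives, 46 stayed within the interval of the value reported, 27 moved outside it and 0 turned a ratio whose interval excludes 1. The *Igha* ratio in plasma barcodes was 0.963 with 2 markers, 0.882 with 4, 0.908 with double-hashtag WT barcodes kept, 0.937 under the 80% hashtag rule and 0.578 without immunoglobulin UMIs in the total. In other cells it was 1.65 with no UMI minimum, 1.52 with 1000 UMIs, 1.30 with 4 markers, 1.45 with double-hashtag barcodes kept, 1.71 with up to 5000 genes, 1.49 under the 80% rule and 2.06 below 50 heavy chain UMIs. In sparse barcodes of 1 to 20 UMIs it was 0.868. The *Igha* share of heavy chain UMIs was 99.4% in WT with 4 markers, 99.6% with double-hashtag barcodes kept and 99.0% under the 80% rule, and in *A20ZF7* 99.0% with 2 and 99.1% with 4 markers. The plasma share ratio was 0.488 with 1000 UMIs, 0.751 with 2 markers and 0.366 with 4. The *Ighm* ratio in B cells was 0 with 1000 UMIs, from 1 cell each, and could not be given with 4 markers, where the B share ratio was 0. Without a gene filter, 4211 in place of 1783 genes were past 2-fold in plasma barcodes. The share ratio of antibody-rich cells was 1.68 with a threshold of 20 UMIs, 1.28 with no UMI minimum and 1.18 with 1000 UMIs. With thresholds of 20 and 100 heavy chain UMIs, an IgG gene led 32 and 19 *A20ZF7* cells and 1 WT cell. The cause of these shifts was not tested. The thresholds of 20, 50 and 100 and the 80% rule as an alternative were added after seeing the data. No paired analysis was possible because each genotype has 1 library. Few UMIs limit *Ighd* and *Ighg3*, and the 4 WT and 3 *A20ZF7* cells of the B class became 7 and 5 with no UMI minimum.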

Other observations

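WT barcodes that carried both hashtags were left out, except in the alternative that keeps them. Of these 2572 barcodes, 115 (4.47%) held 50 or more heavy chain UMIs, and *Igha* led all 115. Barcodes left out for more than 2500 genes or more than 15% mitochondrial UMIs held 13 antibody-rich barcodes of 1641 in WT and 7 of 771 in *A20ZF7*, and *Igha* led each of them. Of all *Igha* UMIs, 21.6% in WT and 8.43% in *A20ZF7* lay in barcodes that are neither cells nor sparse. In WT these include the barcodes with both hashtags, which could not be set apart in *A20ZF7*, so the shares are over unlike sets.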
